A study of Mus musculus with 47 samples.

Results

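Broad H3K4me3 domains of untreated NMuMG cells were 307 of 29490 regions in which histone H3 lysine 4 trimethylation (H3K4me3) was called in control cells before treatment. NMuMG cells are a line of mouse mammary gland epithelium, and transforming growth factor β1 (TGFβ1) drives them towards a mesenchymal form. H3K4me3 peaks of the control library at 0 h were joined where 1000 bp or less lay between them, and joined regions of 3000 bp or more were kept. The domains were therefore chosen by their measured H3K4me3 width at 0 h, and nothing is tested with that width. The other 29183 regions are called narrower regions here. Trimethylated H3K4 is laid down around active and poised gene starts, where it can be bound by readers such as components of the general transcription machinery. Most such marks are short, and in other cell types the widest ones have been linked to genes that control cell identity and cell growth. Acetylation of H3 accompanies active starts and enhancers, and H3K4me1 marks enhancers and the shoulders of promoters.

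The study profiled cells labelled Pbrm1 KO (library label sgPbrm1) and control cells (library label sgCt), untreated at 0 h and after 24 or 48 h with 5 ng/ml TGFβ1. PBRM1 belongs to PBAF, one of the SWI/SNF complexes that remodel nucleosomes. The labels do not say whether the KO cells are 1 clone. The 32 peak lists, 1 a library, cover PHF10 (a PBAF subunit) in KO cells at 48 and 0 h and in control cells at 0, 24 and 48 h, the marks H3K4me3, H3K27ac, H3K14ac, H3K18ac and H3K4me1 at 48 and 0 h of control cells alone, BRG1 (the SWI/SNF ATPase, also named SMARCA4) in control cells at 0 h, and the transcription factors ATF3, FOSL2 and FOSB in KO and control cells. Only PHF10 in control cells at 48 h and at 0 h was replicated, with 2 libraries each, so that no other difference between groups has a replicate check. List length ranged from 2 to 158815 peaks, and read depth is unknown. The intervals given below are exact 95% binomial intervals. They cover counting error only: regions close to each other are related, and differences between libraries are not part of them.

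The domains ranged from 3003 to 12016 bp with a median of 3616 bp, against a median of 513 bp in narrower regions. Of the 307 domains, 206 were under 4000 bp and 27 reached 5000 bp. A single peak made up 59 domains, 2 joined peaks 109, and 3 or more 139. The number depends on the joining, with 75 domains when only touching peaks were joined and 813 when peaks 2000 bp apart were. Just inside the width minimum lay the domains at Shh (3003 bp) and Vasp (3004 bp), and just outside it a region of 2997 bp on chromosome 2 and that of Igf2 (2996 bp). The strongest H3K4me3 peak of a domain had a median fold enrichment over input of 39.8, against 9.44 in narrower regions. A high fold was not particular to the domains. The median was 35.6 in regions of 2000 to under 3000 bp and 47.3 in those of 1000 to under 2000 bp. At gene starts it was 45.3 in domains and 46.0 and 55.5 in those 2 classes. In the 48 domains that lay within a gene, away from a start, the median fold was 11.7, close to that of narrower regions. A fold enrichment here is the authors' own value for a peak. Chromosome 8 carried 34 domains, 2.06% of its H3K4me3 regions, whereas chromosome X carried 5, or 0.479%.

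The sequence at the starts of the widest domains is shown because it lets the base composition of these promoters be read directly. Each line gives the 250 bases before a RefSeq gene start (GRCm38.p6, the assembly that mm10 names), 5′ to 3′ on the strand of the gene, with CG dinucleotides in capitals. The first 4 belong to the widest domains that hold a start of the promoter table: Zbtb7a (chr10:81136021-81136270, plus strand), Tnrc18 (chr5:142817663-142817912, minus strand), Nr4a3 (chr4:48045055-48045304, plus strand) and Lfng (chr5:140607091-140607340, plus strand). Gapdh, a glycolytic housekeeping gene (chr6:125165774-125166023, minus strand), and Alb, which encodes the liver protein albumin (chr5:90460620-90460869, plus strand), are shown for contrast.
Zbtb7a: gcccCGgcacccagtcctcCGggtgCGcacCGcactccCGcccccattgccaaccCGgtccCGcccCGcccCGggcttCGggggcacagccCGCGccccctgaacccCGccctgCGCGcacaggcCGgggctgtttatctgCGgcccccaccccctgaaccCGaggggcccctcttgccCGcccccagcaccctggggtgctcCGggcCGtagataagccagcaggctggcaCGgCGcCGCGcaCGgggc
Tnrc18: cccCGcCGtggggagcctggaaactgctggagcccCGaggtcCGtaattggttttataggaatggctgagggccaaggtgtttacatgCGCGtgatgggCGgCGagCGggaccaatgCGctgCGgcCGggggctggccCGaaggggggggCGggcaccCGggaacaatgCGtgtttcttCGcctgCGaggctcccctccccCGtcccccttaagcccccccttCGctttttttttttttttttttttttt
Nr4a3: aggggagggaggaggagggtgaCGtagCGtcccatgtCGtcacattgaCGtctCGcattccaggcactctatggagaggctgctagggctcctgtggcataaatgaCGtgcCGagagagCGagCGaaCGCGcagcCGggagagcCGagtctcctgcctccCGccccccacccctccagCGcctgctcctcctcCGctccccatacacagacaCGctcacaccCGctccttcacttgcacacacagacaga
Lfng: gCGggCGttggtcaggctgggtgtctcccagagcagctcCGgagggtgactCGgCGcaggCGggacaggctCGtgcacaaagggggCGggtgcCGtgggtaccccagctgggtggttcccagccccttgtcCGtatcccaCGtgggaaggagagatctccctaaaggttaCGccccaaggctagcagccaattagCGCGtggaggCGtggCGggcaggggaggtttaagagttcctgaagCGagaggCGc
Gapdh: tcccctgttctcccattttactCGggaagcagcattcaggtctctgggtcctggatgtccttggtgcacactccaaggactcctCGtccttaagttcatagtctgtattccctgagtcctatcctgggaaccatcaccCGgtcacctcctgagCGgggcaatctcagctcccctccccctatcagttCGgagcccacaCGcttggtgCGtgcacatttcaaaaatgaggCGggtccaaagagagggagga
Alb: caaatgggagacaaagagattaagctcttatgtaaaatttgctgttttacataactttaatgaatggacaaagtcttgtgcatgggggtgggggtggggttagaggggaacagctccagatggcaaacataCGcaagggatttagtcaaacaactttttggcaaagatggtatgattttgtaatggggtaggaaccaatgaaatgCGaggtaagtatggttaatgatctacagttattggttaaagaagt
The Zbtb7a stretch held 26 CG dinucleotides and was 78.0% G and C, and the Tnrc18, Nr4a3 and Lfng stretches held 20, 18 and 18. The Gapdh stretch, with an H3K4me3 region of 868 bp, held 8. The Alb stretch, with no H3K4me3 region within 2000 bp, held 2 and was 39.2% G and C.

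Over the whole promoter table, which gives 250 bases before to 50 after a start, 203 of the 281 genes at broad domains had an entry. Their promoters had a median G and C content of 65.7% (interquartile range 59.5 to 69.8) and a median ratio of observed to expected CG of 0.795. The same medians were 66.7% and 0.811 for 588 promoters at regions of 2000 to under 3000 bp, 62.3% and 0.775 for 10165 promoters at regions under 2000 bp, and 46.3% and 0.181 for 6536 promoters with no H3K4me3 region. Promoters at broad domains thus resembled those at other H3K4me3 regions in composition, with interquartile ranges that overlapped. The AP-1 motif TGANTCA, which reads the same on both strands, was in 7 of the 203 promoters (3.45%). It was in 3.74% of promoters at regions of 2000 to under 3000 bp and 4.01% at regions under 2000 bp, about the same share, and in 11.6% of promoters with no region and 6.84% of all 17492. The motif TGACGTCA, bound by factors of the ATF and CREB family and equal on both strands, was in 6 of the 203 (2.96%). They were Cbx8, Csf2ra, Irf2bpl, LOC108167694, Ptprs and Tmem59l. It was in 3.23% of promoters at regions of 2000 to under 3000 bp and 3.18% at regions under 2000 bp, about the same share. In promoters with no region the share was 0.887%, and in all promoters 2.32%. Matches of TGANTCA and TGACGTCA cannot overlap.

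The domains lay mainly at gene starts. A protein-coding gene start lay within 2000 bp of 251 domains (81.8%), against 13268 of 29183 narrower regions (45.5%), and of all joined regions the share was 45.8%. In 236 domains the start lay inside. A further 48 domains lay within the span of a protein-coding gene with no start of one within 2000 bp, and 8 at neither, 5 of which had a non-coding gene next to them. The 281 genes with a start at a domain were 1.28% of 21887 protein-coding genes. In 30 domains, 2 or more coding genes had a start. Regions of 1000 to under 2000 bp had a gene start about as often as the domains (81.0%), as had those of 2000 to under 3000 bp (78.7%), and the share was lower in shorter regions.

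Where a single strand could be assigned, in 162 domains, the mark reached a median of 2618 bp downstream of the first start (interquartile range 1828 to 3098) and 1155 bp upstream (437 to 2041). The longer arm ran into the gene in 117 of the 162 (72.2%). Narrower regions had the same orientation on a smaller scale, with 618 bp downstream and 239 bp upstream in 7895 regions, and the longer arm downstream in 87.5%.

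The widest domain, 12016 bp at chr10:81134212-81146227, covered the start of Zbtb7a, a zinc finger repressor. The domain at Tnrc18 followed at gene starts with 8280 bp, then Nr4a3, an orphan nuclear receptor induced early by growth signals, with 6571 bp. Lfng, a glycosyltransferase that modifies Notch, had 6409 bp, Bcl11a, a zinc finger repressor, 6283 bp, and Egr3, an immediate early zinc finger factor, 6188 bp. The D-type cyclins Ccnd2 and Ccnd1, which drive entry into the cell cycle, had 6104 and 6037 bp. Pdgfa, a platelet-derived growth factor ligand, had 5681 bp, Irs2, an adaptor of the insulin receptor, 5641 bp, and Isyna1, which makes inositol phosphate, 5698 bp. The other widest domains lay inside genes, away from a start: 9788 bp in Plec (chr15:76174129-76183916), the gene of the cytolinker plectin, 6354 bp in Kif26a and 5486 bp in Apc2. Kif26a had a second domain, of 3290 bp, at its start.

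One domain of 5824 bp, at chr17:39843004-39848827, lay beside the 18S ribosomal RNA gene Rn18s-rs5 and had the lowest H3K4me3 fold of all 307 (4.38). It held 4 of the 7 peaks of the control FOSL2 list at 0 h and 2 of the 5 of the KO FOSL2 list at 0 h, and it was marked in most other lists. Repeated ribosomal DNA takes reads from many copies, and its part in these peaks was not tested.

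By gene class, immediate early and stress genes had the highest share at broad domains among the 13 lists, with 10 of 28 (35.7%), against 1.28% of all protein-coding genes. All 28 had an H3K4me3 region, with a median width of 2300 bp, against 916 bp over the 13790 protein-coding genes that had one. The zinc finger factor genes Egr3 and Egr2 had 6188 and 3937 bp. Zfp36l1 (4676 bp) and Zfp36 (3894 bp) encode RNA-binding proteins that destabilise messenger RNA. The others were Gadd45b (3845 bp), a stress-induced growth arrest gene, Klf10 (3595 bp), a Krüppel-like factor induced by TGFβ, Myc (3427 bp), Dusp4 (3345 bp), a phosphatase of MAP kinases, Klf4 (3292 bp) and Klf2 (3277 bp). Developmental transcription factors were next, with 14 of 60 (23.3%) and a further 22 at 2000 to under 3000 bp. Irx5 had 5156 bp, Rarg, a retinoic acid receptor, 4727 bp, Gata2 4516 bp, Tbx2 4396 bp, Sox9 4242 bp, and Dlx2 4226 bp, and the rest were Foxo3, Nkx2-1, Irx2, Runx1, Sox4, Foxa2, Gata6 and Foxp1. Of 39 Hox genes 38 had a region, 8 reached 2000 bp and 0 reached 3000 bp, a count that is near the share of 1.28% over all genes.

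Of 22 AP-1 and ATF genes, 3 had a broad domain: Junb with 4558 bp, Fosl2 with 4203 bp and Jun with 3307 bp, which encode AP-1 subunits. Of 45 mesenchymal and TGFβ response genes, 5 had one (11.1%). They were Smad7 (4638 bp) and Smad6 (3358 bp), which encode inhibitory SMADs, the ligand gene Tgfb1 (3600 bp), Cdh2 (3026 bp), which encodes N-cadherin, and Hmga2 (3014 bp), a chromatin protein gene. Of 44 epithelial genes, only Esrp1, a splicing regulator of epithelial cells, had one, at 3175 bp. Of 29 SWI/SNF genes, 4 had one, Arid2 (4043 bp), a PBAF subunit, Smarca2 (3338 bp), the ATPase that can stand in for BRG1, Arid1b (3164 bp) and Arid1a (3110 bp).

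No broad domain lay at a start of the 38 ribosomal protein genes (median 830 bp among the 35 with a region). The same held for the 20 housekeeping genes (868 bp), the 20 YAP and Hippo genes and the 17 H3K4 methylation genes. It also held for the 12 genes of histone acetylation, which include the deacetylase genes Hdac1, Hdac2 and Hdac3. A domain of 4510 bp lay within Kmt2d, an H3K4 methyltransferase gene, but away from its start. Of 25 markers of other cell types, 11 had an H3K4me3 region, the widest 1261 bp, and 0 had a broad domain. With 1.28% of all protein-coding genes at a broad domain, a count of 0 in lists of this size is near the background, and the medians of the ribosomal protein and housekeeping genes are close to the 916 bp over all genes with a region.

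**Figure D1:**
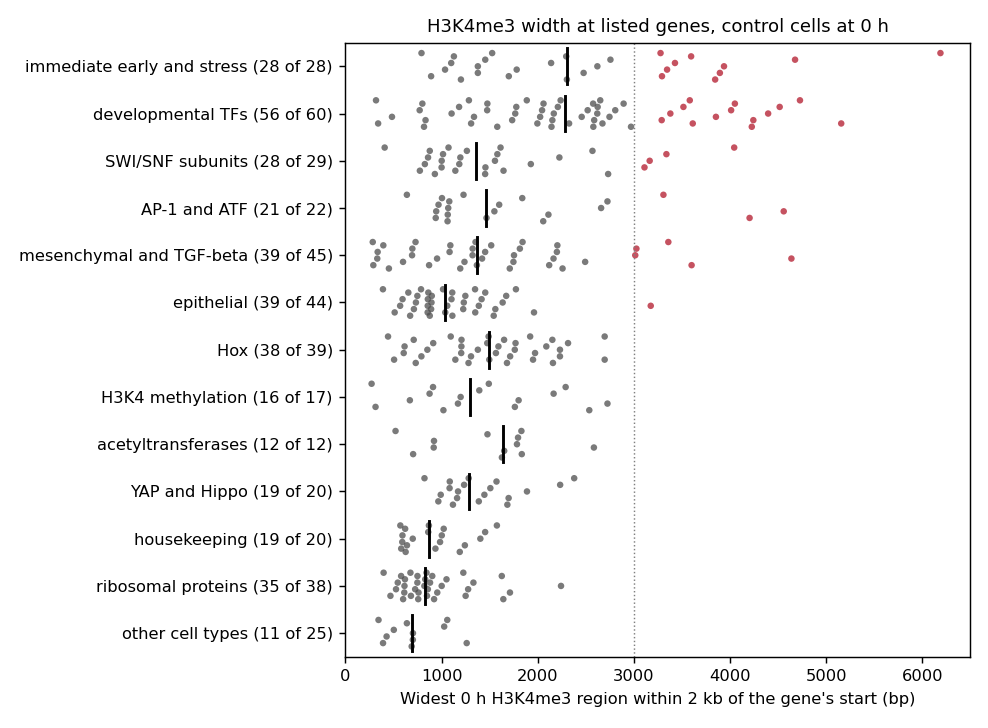
H3K4me3 width (bp) of the widest region within 2 kb of the start of each listed gene in control cells at 0 h, 1 point a gene, with the median as a black bar and the 3000 bp minimum as a dotted line. Counts beside the list names are the genes with an H3K4me3 region of the genes listed. Red points lie at broad domains, which 10 of 28 immediate early genes and 0 of 38 ribosomal protein genes do. The row named acetyltransferases also holds the deacetylase genes Hdac1, Hdac2 and Hdac3.

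The width of the domains was largely the same after 48 h of TGFβ1. All 307 still had H3K4me3 at 48 h, as had 86.1% of all joined regions, and 273 (88.9%) were still 3000 bp or wider. Keeping the mark was not particular to the domains. It was kept in 100% of regions of 2000 to under 3000 bp, 99.8% at 1000 to under 2000 bp and 99.1% at 500 to under 1000 bp. In regions under 500 bp the share was 71.9%. The median width was 3532 bp at 48 h and 3616 bp at 0 h, and the median ratio of 48 h to 0 h width was 1.00 (interquartile range 0.987 to 1.02). In 252 domains the width stayed within 10% of the 0 h value, 17 were wider than that and 38 narrower. Because the domains were chosen at 0 h, the choice was also made at 48 h. Of 340 regions of 3000 bp or more at 48 h, 273 (80.3%) had that width at 0 h, 42 had 2000 to under 3000 bp and 25 had less. There is 1 H3K4me3 library a time, so that no spread between libraries can be set beside these values.

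Some domains shrank far more than the median. The region at Lhx5, a LIM homeobox gene, was 679 bp wide at 48 h, against 3073 bp at 0 h, although H3K4me3 peaks there covered 1336 bp at 48 h and 1899 bp at 0 h, so that the gap between peaks had grown as well. At Pou3f3, which encodes a neural POU factor, the widths were 2386 bp at 48 h and 4758 bp at 0 h. Wnt10b, a WNT ligand gene, had 2083 bp at 48 h and 4167 bp at 0 h. Klf2 had 1739 bp at 48 h and 3277 bp at 0 h. The largest loss of covered bases was at Asmt on chromosome X, with 1688 bp at 48 h and 3107 bp at 0 h in the domain and 1 kb on either side. Zfp36l1, with 3064 and 3765 bp, and Mxi1, a MYC antagonist, with 3133 and 3792 bp, lost 701 and 659 covered bp but kept most of their width. A domain on chromosome 18 with no gene within 2000 bp had 2040 bp covered at 48 h and 3274 bp at 0 h.

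The largest gains of covered bases were in Kif26a, with 4933 bp at 48 h and 4055 bp at 0 h, and at Bcl11a, with 5656 and 4819 bp. Joined width grew most at Pcnx3 and Map3k11, to 7087 bp at 48 h, against 3201 bp at 0 h. Within Tfap2c, which encodes an AP-2 factor, the widths were 6382 bp at 48 h and 3233 bp at 0 h, and at Midn they were 6221 and 3712 bp. Cebpb, a leucine zipper factor gene, had 4812 bp at 48 h and 3619 bp at 0 h. A gain of joined width was not always a gain of marked bases. At Cebpb 3576 bp were covered at 48 h and 3619 bp at 0 h. Regions that reached 3000 bp only at 48 h included those at Dusp6, an ERK phosphatase gene (3523 bp at 48 h, 1128 bp at 0 h), Fosb (3423 and 2111 bp), Tfap2a (3723 and 1766 bp), Bhlhe41 (4370 and 1812 bp), Foxf1 (3084 and 2623 bp) and Hoxb2 (3016 and 2152 bp).

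**Figure D2:**
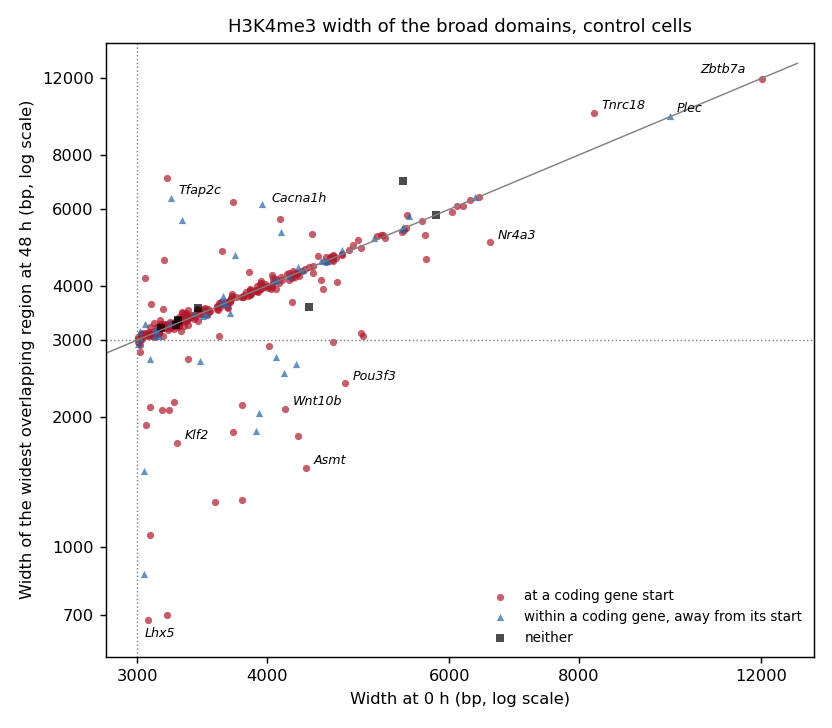
Width (bp, log axes) of the 307 broad domains in control cells: the vertical axis is the widest overlapping region at 48 h of TGFβ1 and the horizontal axis the width at 0 h, with equality as a grey line and 3000 bp dotted. Most points lie on the line, 273 lie at or above 3000 bp at 48 h, and Lhx5, Asmt and Pou3f3 lie far below it.

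H3K27ac was near universal in the domains. It was called in 260 domains at 48 h (84.7%, interval 80.2 to 88.5) and in 297 at 0 h (96.7%, 94.1 to 98.4), against 39.3% of narrower regions at 48 h and 54.6% at 0 h. Of all joined regions, 39.7% had it at 48 h and 55% at 0 h. At 0 h H3K27ac was the sole acetylation of the 3 in 175 domains (57.0%), all 3 were called in 43, and none in 9 (2.93%). Of narrower regions 41.7% had H3K27ac alone, 3.41% all 3 and 45.3% none, and at gene starts H3K27ac alone was in 53.4% of domains and 60.9% of narrower regions. Domains with a gene start had it in 234 of 251 at 48 h (93.2%) and in 246 at 0 h, with 232 at both times, whereas domains within genes had it in 20 of 48 at 48 h (41.7%, 27.6 to 56.8) and 43 at 0 h (89.6%, 77.3 to 96.5). Of narrower regions with no gene start within 2000 bp, 12.2% had it at 48 h. H3K27ac was called at 0 h but not at 48 h in 39 domains (12.7%) and 4657 narrower regions (15.96%). A smaller share of narrower regions had it at 0 h to lose (54.6%, against 96.7% of domains). Of regions with it at 0 h, 39 of 297 domains lost the call, a lower share than the 4657 of 15933 narrower regions. Regions of 2000 to under 3000 bp were close to the domains, with 11.9% called at 0 h alone and 90.9% called at 0 h. Of the 39 domains, 23 lay within genes (Apc2, Jag2, Kmt2d, Bsn and others). Among those at starts were Bcl11a, Esrp1, Pou3f2, Lmx1b and Otp. The 48 h list was shorter, with 15962 peaks, against 20507 at 0 h.

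The extent of H3K27ac within a domain differed widely between genes. Zbtb7a had a highest fold of 145 at 48 h and 191 at 0 h, and peaks covered 38.2% of its domain at 48 h and 74.7% at 0 h. Irs2 was covered over 55.2% at 48 h and 93.7% at 0 h, and Junb over 60.3% and 87.4%. Smad7, whose expression TGFβ induces, was covered over 84.2% at 48 h and 85.1% at 0 h. Bcl11a had no H3K27ac peak at 48 h and 9.55% covered at 0 h, and the domain in Kif26a had none at either time.

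H3K14ac and H3K18ac were called in more domains at 48 h than at 0 h, in lists of very different length. H3K14ac was called in all 307 domains at 48 h (lower bound 98.8%) and in 91 at 0 h (29.6%), against 86.2% and 10.0% of narrower regions, and in 86.4% and 10.2% of all joined regions. The H3K14ac lists held 35270 peaks at 48 h and 3458 at 0 h. At gene starts, H3K14ac at 0 h was called less often in domains (32.7%, 26.9 to 38.9) than in regions of 2000 to under 3000 bp (40.1%, 36.4 to 44.0) or 1000 to under 2000 bp (41.3%). H3K18ac was called in 183 domains at 48 h (59.6%, 53.9 to 65.1) and in 75 at 0 h (24.4%, 19.7 to 29.6), against 22.4% and 6.47% of narrower regions, and in 22.8% and 6.66% of all joined regions. The H3K18ac lists held 20418 peaks at 48 h and 13231 at 0 h. H3K18ac appeared at 48 h alone in 110 domains (35.8%) and at 0 h alone in 2 (0.651%), against 16.7% and 0.826% of narrower regions. In regions of 2000 to under 3000 bp the shares were 33.8% and 1.17%, near those of the domains. At gene starts H3K18ac appeared at 48 h alone in 40.2% of domains and 33.3% of narrower regions. The highest H3K18ac fold of any domain at 48 h, 166, was at Arid2, with 81.5% of the domain covered at 48 h and 60.4% at 0 h. Arid1b had 94.4% covered at 48 h and 88.6% at 0 h. Smad7 had 80.4% covered at 48 h and 17.5% at 0 h, and Arid1a 78.0% and 20.0%. All 3 acetylations were called in 183 domains at 48 h, that is in every domain with H3K18ac. The same was so for 22.2% of narrower regions and 54.55% of regions of 2000 to under 3000 bp, where all 3 were called.

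H3K4me1 was called in 266 domains at 48 h (86.6%, 82.3 to 90.2) and 260 at 0 h (84.7%, 80.2 to 88.5), against 37.8% and 52.8% of narrower regions, and in 38.3% and 53.1% of all joined regions. The share in narrower regions was lower at 48 h, whereas 23 domains had the mark at 48 h alone and 17 at 0 h alone. The H3K4me1 lists held 12863 peaks at 48 h and 20179 at 0 h. With peaks of fold 5 or more, domains had H3K4me1 at 0 h less often than narrower regions (difference -1.70 percentage points). Smad7, Jun, Junb and Myc had no H3K4me1 peak in their domains at either time. In Plec 75.1% of the widest domain within a gene was covered by H3K4me1 at 0 h.

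**Figure D3:**
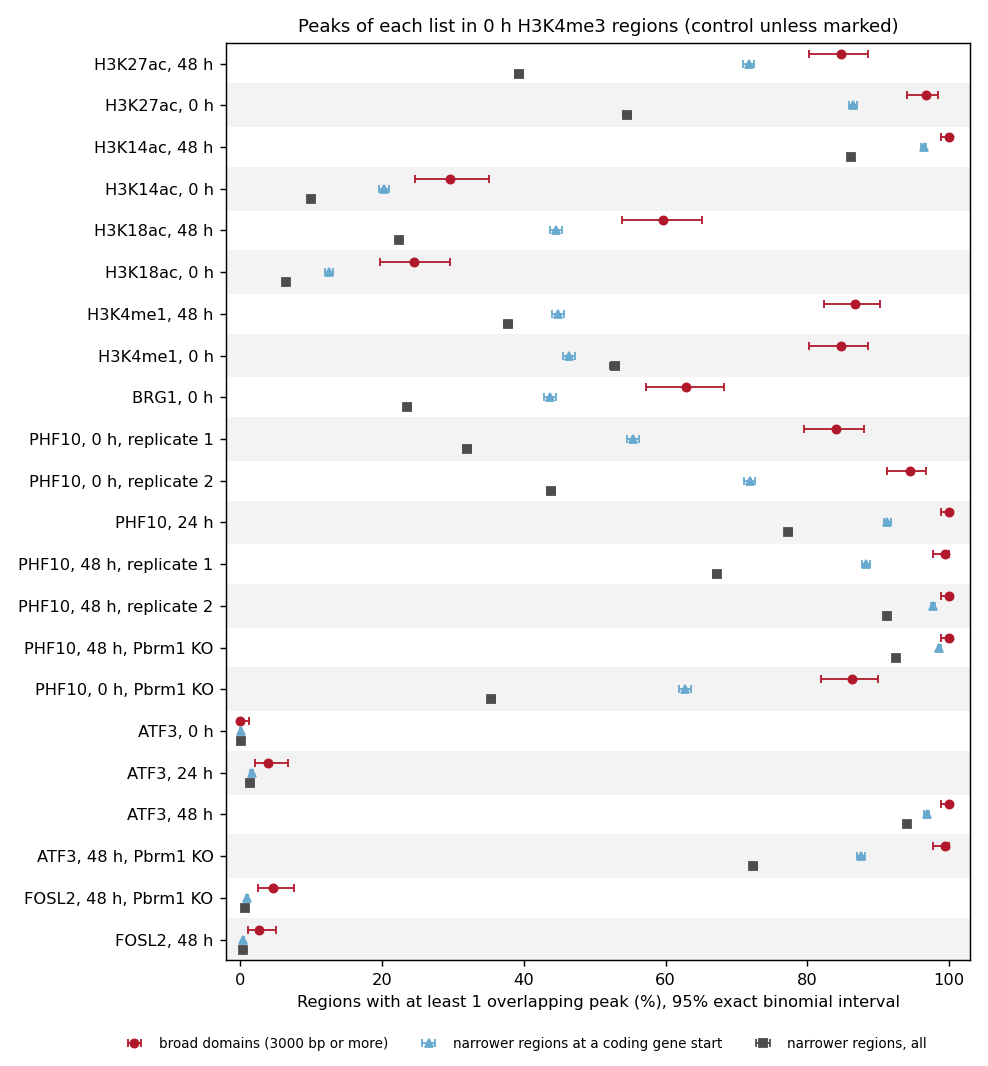
Share of regions (%) with at least 1 peak of each list, in broad domains (red circles, n = 307), narrower regions at a coding gene start (blue triangles, n = 13268) and all narrower regions (grey squares, n = 29183), with exact 95% binomial intervals. Broad domains have the highest share in every list shown other than ATF3 at 0 h, and the narrower regions at gene starts lie closer to them than all narrower regions do, except for H3K4me1 and ATF3 at 0 h.

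A wide region has more room for a peak, and more of the domains lie at gene starts, so that each was held equal in turn. In windows of 1000 bp centred on the strongest H3K4me3 peak, H3K27ac at 0 h was in 93.2% of domains and 54.3% of narrower regions, BRG1 in 55.7% and 23.6%, and H3K4me1 at 0 h in 63.5% and 51.6%. Counted by bases, the classes were close for H3K27ac and H3K4me1. H3K27ac peaks covered 56.3% of domain bases and 58.0% of narrower-region bases at 0 h, and H3K4me1 peaks 34.4% and 35.2%, whereas BRG1 peaks covered 30.2% and 21.9%. For the 2 marks the higher share of domains with a peak did not come with a higher density of marked bases. Domain bases include the gaps between joined peaks. H3K4me3 peaks themselves covered 77.6% of domain bases and 86.7% of narrower-region bases at 48 h. The part of these gaps in the densities was not tested. Among regions at gene starts, the excess of domains over narrower regions was 11.6 percentage points for H3K27ac at 0 h, 25.7 for BRG1 and 36.2 for H3K4me1 at 0 h, against 42.2, 39.4 and 31.9 among all regions. There H3K27ac at 0 h was called in 98.0% of domains and in 93.9%, 95.3% and 92.7% of regions of 2000 to under 3000, 1000 to under 2000 and 500 to under 1000 bp. BRG1 was called in 69.3% of domains at starts and in 60.9%, 63.1% and 39.4% of those 3 classes. Above 1000 bp the shares of these 2 lists varied by less than 10 percentage points. PHF10 in replicate 1 at 0 h was in 92.0% of domains at starts, 84.7% of the next class, 82.0% of the third and 51.9% of the fourth. H3K4me1 at 0 h varied most above 1000 bp, with 82.5% of domains at starts (77.2 to 87.0), 73.0% at 2000 to under 3000 bp (69.5 to 76.4), 50.1% at 1000 to under 2000 bp (48.6 to 51.6) and 39.7% below that, down to 500 bp. In the equal windows this step was smaller, with 58.2%, 57.5% and 46.4% in the first 3 of these classes.

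**Figure D4:**
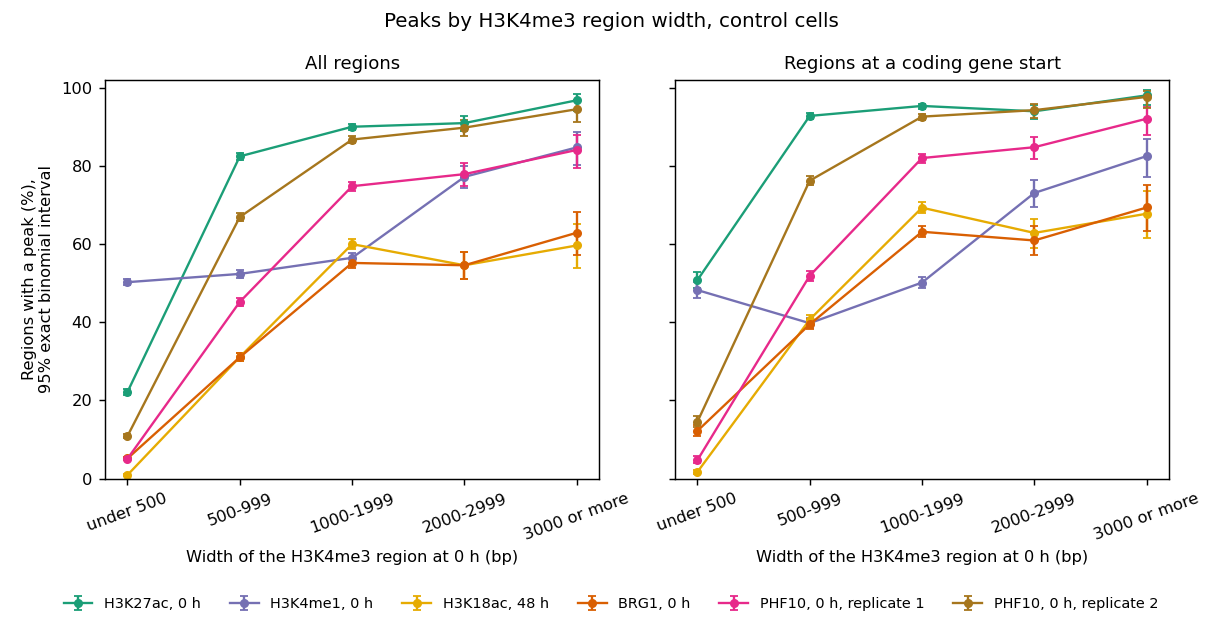
Share of regions (%) with a peak against the width class of the H3K4me3 region (bp), for all regions (left) and regions at a coding gene start (right) in control cells, with exact 95% binomial intervals. At gene starts H3K18ac, BRG1 and PHF10 climb up to the class of 1000 to under 2000 bp and vary less above it, whereas H3K4me1 climbs from there, to 82.5% at 3000 bp or more.

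Across the 162 domains that could be read along 1 gene, the marks had different shapes. Each domain was cut into 20 bins, and the first 4, middle 4 and last 4 are given as its upstream end, middle and downstream end. H3K4me3 peaks set the edges, and the gaps between joined peaks lie inside. H3K4me3 at 0 h thus covered 89.3% of the upstream end, 81.2% of the middle and 88.4% of the downstream end. H3K4me1 at 0 h covered 38.3%, 31.5% and 40.2%, highest just within either edge. H3K14ac at 48 h, with 75.3%, 73.0% and 77.2%, and ATF3 at 48 h, with 79.1%, 74.7% and 78.8%, were also lowest in the middle of these 3 parts. The part of the joining in these shapes was not tested. H3K27ac was more even, with 48.6%, 50.1% and 39.3% at 48 h, and 66.5%, 66.0% and 63.4% at 0 h, so that the downstream end was the lowest at 48 h. H3K18ac at 48 h leaned the same way, with 24.6%, 31.9% and 14.7%. BRG1 covered 38.3%, 40.7% and 25.7% at 0 h and reached past both edges, with 6.30% of the 2 kb upstream and 5.22% of the 2 kb downstream. PHF10 in replicate 2 at 0 h was highest in the middle, with 43.3%, 57.9% and 41.8%.

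**Figure D5:**
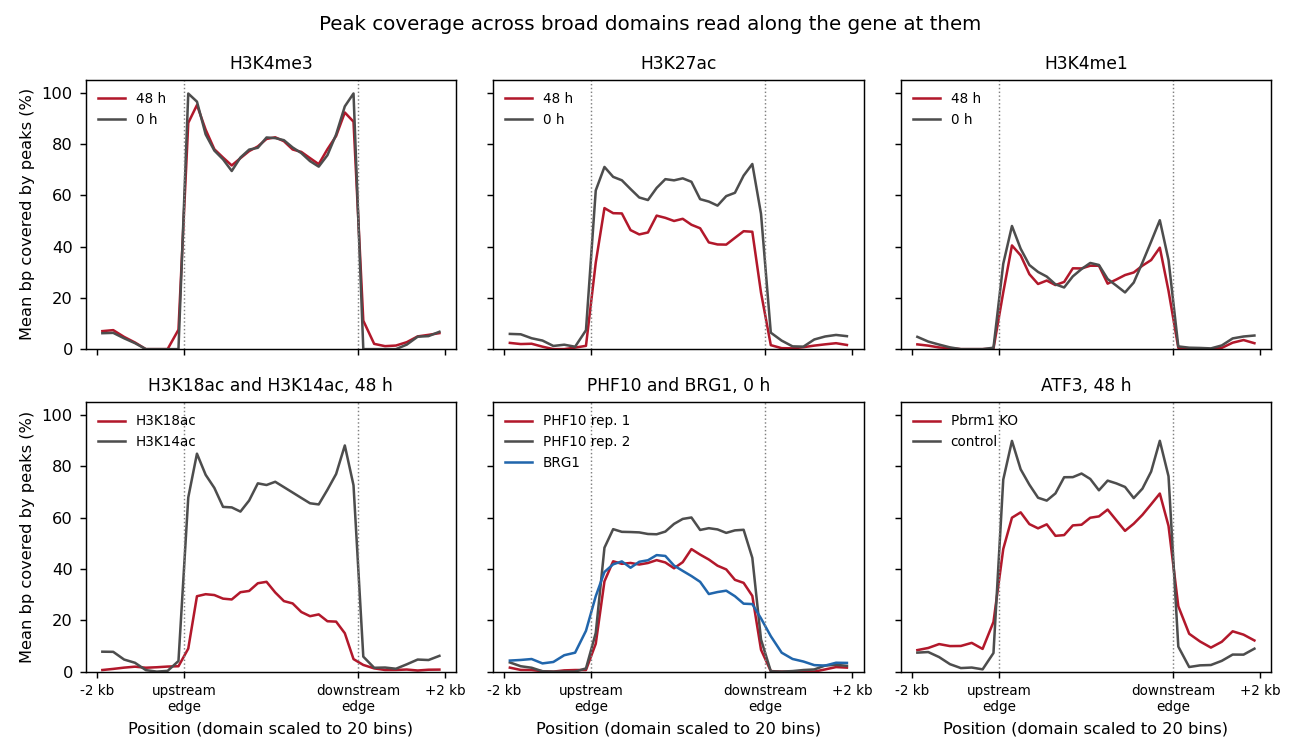
Mean share of bases covered by peaks (%) across 162 broad domains read in the direction of their gene, each domain scaled to 20 bins and flanked by 2 kb in bins of 250 bp. H3K27ac lies lower at 48 h than at 0 h across the domain, and BRG1 and H3K18ac are lower on the downstream side. H3K4me1 peaks at both edges, as does H3K4me3, whose peaks at 0 h set the edges.

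Within most lists, peaks in the domains ranked higher than those in narrower regions. By the authors' fold, the strongest H3K14ac peak of a domain at 48 h was at a median in the top 20.1% of its list, and that of a narrower region with a peak in the top 38.8%. The same ranks were 29.5% and 37.1% for H3K27ac at 48 h, 32.8% and 40.2% for H3K27ac at 0 h, and 35.8% and 44.6% for H3K4me1 at 0 h. The order was the other way for H3K14ac at 0 h, with 50.2% and 43.9%, and for ATF3 at 24 h, with 78.1% and 66.8%. A domain has more peaks to take the strongest from, and its part in these ranks was not tested.

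PHF10 was called in most domains before treatment. Replicates 1 and 2 had a peak in 258 and 290 domains at 0 h (84.0% and 94.5%), against 32.0% and 43.8% of narrower regions, and in 32.6% and 44.4% of all joined regions. At 24 h all 307 had one, against 77.3% of narrower regions and 77.6% of all joined regions. At 48 h replicates 1 and 2 had 305 and 307 (99.3% and 100%), against 67.2% and 91.3% of narrower regions, and in 67.5% and 91.4% of all joined regions. The share of domains averaged 99.7% ± 0.46 at 48 h and 89.3% ± 7.37 at 0 h (SD, n = 2 each), a difference of 10.4 percentage points. The exact two-sided permutation test over libraries gave p = 0.333, the smallest that 2 against 2 allow. The narrower regions differed by more, 41.3 points, and the excess of domains over narrower regions was 20.4 points at 48 h and 51.3 at 0 h, with the same exact permutation p of 0.333. The shares at 48 h lay above both of those at 0 h.

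The direction of the PHF10 difference rests on weak peaks of long lists. The 48 h lists held 43549 and 102434 peaks, against 11286 and 14733 at 0 h. With peaks of −log10 q of at least 5, 48.9% and 28.7% of domains had PHF10 at 48 h, against 79.5% and 24.4% at 0 h, a mean difference of -13.2 points with overlapping libraries. With all 4 lists cut to the length of the shortest, the shares were 57.6% and 22.1% at 48 h, against 84.0% and 84.4% at 0 h. BRG1, whose list also reached down to a −log10 q of 1.00, had 193 domains with a peak. Only 2 (0.651%) had one when a −log10 q of 5 was required, against 0.569% of narrower regions. Of all BRG1 peaks 6.20% passed that cut. Nearly all of the BRG1 overlap is thus with weak peaks, in domains and narrower regions alike.

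BRG1 was called in 193 domains (62.9%, 57.2 to 68.3), against 23.5% of narrower regions and 23.9% of all joined regions. PHF10 was called in both 0 h replicates in 255 domains (83.1%) and 28.4% of narrower regions. Of these domains 175 had BRG1 as well, which is 57.0% of all domains, against 15.6% of narrower regions with both. BRG1 without PHF10 in either replicate occurred in 4 of 307 domains and 3.60% of narrower regions. Domains within genes had these peaks less often than those at starts, with BRG1 in 16 of 48 (33.3%, 20.4 to 48.4), against 174 of 251 at starts (69.3%), and PHF10 in both replicates in 20 of 48, against 229 of 251. Narrower regions with no gene start within 2000 bp had lower shares still, with BRG1 in 6.74% and PHF10 in both replicates in 8.46%. BRG1 covered 100% of the domain at Arid1a, 92.7% at Arid1b and 71.3% at Irs2, and no BRG1 peak lay at Bcl11a or Gata2. The 14 domains with no PHF10 in either 0 h replicate included those at Myc and Pax5 and those within Zdhhc8, Myo15, Crocc, Cacna1h and Atp13a2. At Myc, PHF10 peaks covered 97.8% and 98.9% of the domain in the 2 libraries at 48 h, with a fold of 2.63 and 2.53.

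In KO cells PHF10 was called in 307 domains at 48 h and in 265 at 0 h (86.3%), and in 92.6% and 35.9% of all joined regions. The 0 h value lay between the control replicates (84.0% and 94.5%). PHF10 was called in both control replicates and not in KO cells at 0 h in 7 domains (2.28%) and 1.27% of narrower regions. The 7 were Wnt10b, Aldoa, Arhgef19, Pnmal2, Caskin1, Ckb and Nrp1, and 2 domains (0.651%) had it in KO cells and in neither control replicate, as had 1.46% of narrower regions.

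ATF3, a stress-induced bZIP factor, was in 0 of 307 domains in control cells at 0 h (upper bound 1.19%), in 12 at 24 h (3.91%, 2.04 to 6.73) and in all 307 at 48 h, against 0.0308%, 1.39% and 94.1% of narrower regions. Of all joined regions, 1.42% had it at 24 h and 94.2% at 48 h, so that at 48 h the domains stood little apart from the rest. The control lists held 20, 2008 and 45718 peaks. Within the 48 h list the strongest ATF3 peak of a domain ranked at a median in the top 11.5% by fold. That of a narrower region with a peak ranked in the top 34.7%. In 260 domains there were 2 or more ATF3 peaks to take the strongest from, and the part of peak number in this rank was not tested. The 12 domains with ATF3 at 24 h were those of Ccnd2, Dlx2, Arid2, Efna3, Lbx1, Smarca2, Phf21b, Zfp768, Prob1 with Spata24, those within Kmt2d and Lzts2, and the one beside Rn18s-rs5. At Ccnd2 the ATF3 fold was 3.90 at 24 h, over 4.08% of the domain.

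In KO cells ATF3 was called in 305 domains at 48 h (99.3%), against 72.3% of narrower regions and 72.6% of all joined regions. It covered 57.6% of domain bases in KO cells at 48 h, against 74.1% in control cells, although the KO list was longer, with 144513 peaks, against 45718. The lower coverage in KO cells was not particular to the domains. In narrower regions with an ATF3 peak the median share of bases covered was 74.6% in KO cells and 91.1% in control cells. In regions of 2000 to under 3000 bp the median covered was 1456 bp in KO cells and 1870 bp in control cells. Domains without ATF3 at 48 h in KO cells were that within Ltbp4 and that of Pknox2. At 24 h 1 domain had ATF3 in KO cells and 12 in control cells, from lists of 69 and 2008 peaks. The 1 domain in KO cells was that beside Rn18s-rs5, with a fold of 1.18.

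FOSL2, an AP-1 subunit, was called at 48 h in 14 domains in KO cells (4.56%, 2.52 to 7.53) and in 8 in control cells (2.61%, 1.13 to 5.07). Narrower regions had 0.631% in KO cells and 0.336% in control cells, and all joined regions 0.671% and 0.359%. The 8 in control cells were Zbtb7a, Brd2, Dlx2, Csf2ra, Klf10, Wnt9a, Trib1 and the gene of FOSL2 itself. Lfng, Ptprs, Midn, Runx1, Mnt, Klf4 and Lhx6 had a peak in KO cells and none in control cells, and Csf2ra the reverse. All of these lie at gene starts, and in windows of 1000 bp at the strongest H3K4me3 peak 2 of 307 domains had FOSL2 in KO cells (0.651%) and 0 in control cells. The FOSL2 peaks of the domains thus lay mostly outside those windows. At Fosl2 the control peak had a fold of 9.63 and covered 6.76% of the domain. FOSB was called in 1 domain at 48 h in control cells, that of Trib1, a pseudokinase gene.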

How the data were processed

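Peak lists were analysed as deposited, 1 list a library, with no pooling recorded. Software versions in the submitters' processing notes are Bowtie2 2.3.3 and fastp 0.19.5, then deepTools 3.5.1, Partek 11.0.24.0325 and MACS3 3.0.0a7, with mm10 as the build and no settings. Per the labels, cells for PHF10, BRG1 and ATF3 were crosslinked with disuccinimidyl glutarate and formaldehyde, and cells for the marks, FOSL2 and FOSB with formaldehyde alone. The deposited pileup signal was not used. The deposited −log10 values of p and q and the authors' fold, a ratio of ChIP over input, were used inside a list alone, to rank and filter its peaks. Lists of PHF10 and BRG1 reach down to a −log10 q of 1.00 and the others to 1.30, so they are not equally strict. The 15 inputs have no list here.

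Only peaks on the assembled chromosomes entered, with starts counted from 0, since length equals end minus start in the files. Overlap meant 1 bp. Width at 48 h is that of the widest overlapping joined region. Covered bases were counted in the domain and 1000 bp on either side. Genes and promoters came from RefSeq (GRCm38.p6). Starts were taken from the promoter table for 17492 of 21887 protein-coding genes, and both gene ends stood for the start of the other 4395. No sequence of the domains themselves was used. Named domains were the 15 widest, the 10 with the largest fall and the 10 with the largest rise in covered bases, the 10 widest without acetylation at 0 h, with ATF3 at 24 h or without PHF10 at 0 h, and members of the gene lists at a domain. Examples for single lists, the widest relative changes and regions broad at 48 h alone were chosen after their values were seen. The members and lists were chosen with earlier results of these data known. The PHF10 shares were compared with an exact two-sided permutation test over 4 libraries, which cannot go below 0.333, and the labels do not say that the replicates are separate cultures. Joining and overlap were tested on simulated intervals. Python 3.11.15, numpy 2.4.6 and scipy 1.17.1 were used. The result for 1 gene is not reported here.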

Additional observations from a re-analysis of the deposited data

How the results depend on the processing

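Of 110 recomputed values, 56 stayed within their error (or within 1.5 times for counts), 49 moved by more than that without changing direction and 5 changed direction. Joining at 0 or 2000 bp gave 75 or 813 domains and 67 or 742 genes, and width minimums of 2000 or 5000 bp gave 1165 or 27 domains and 1067 or 21 genes. The median width ratio of 48 h to 0 h lay between 0.993 and 1.005 under all alternatives tried, and the share of domains still at the width minimum was 96.3% with a minimum of 5000 bp and 71.7% with 48 h peaks of fold 5 or more.

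The excess of domains over narrower regions in percentage points was, when peaks were joined only where they touch, 58.5 for BRG1, 14.6 for H3K14ac at 48 h, 56.1 for H3K18ac at 48 h, 44.9 for H3K27ac at 0 h, 23.3 for H3K4me1 at 0 h and 61.0 for PHF10 at 0 h, and when joined at 2000 bp 24.9 for BRG1, 22.7 for H3K18ac, 37.4 for H3K27ac, 38.1 for H3K4me1 and 40.3 for PHF10. With a minimum of 2000 bp it was 38.9 for H3K27ac and 27.1 for H3K4me1, and with 5000 bp 43.2 for H3K4me1 and 46.8 for PHF10. With −log10 q of at least 5 it was 8.14 for ATF3 at 48 h, 0.0826 for BRG1, 17.6 for H3K14ac and 32.3 for PHF10. With fold of at least 5 it was 15.0 for ATF3, 20.2 for H3K14ac, 36.2 for H3K27ac and 27.9 for PHF10, and it reversed to -0.024 for BRG1 and -1.70 for H3K4me1. The PHF10 values are means of 2 replicates at 0 h, which differed at both cuts. At the q cut 79.5% of domains and 27.8% of narrower regions had PHF10 in replicate 1, and 24.4% and 11.5% in replicate 2. At the fold cut these shares were 82.1% and 29.1% in replicate 1, and 7.82% and 5.02% in replicate 2. Of the 29215 BRG1 peaks 423 pass that fold; for H3K4me1 the cause was not tested. In windows of 1000 bp it was 32.1 for BRG1, 12.6 for H3K14ac, 38.9 for H3K27ac, 11.9 for H3K4me1 and 44.8 for PHF10. Among regions at gene starts it was 3.20 for ATF3, 25.7 for BRG1, 3.62 for H3K14ac, 23.2 for H3K18ac, 11.6 for H3K27ac, 36.2 for H3K4me1 and 31.2 for PHF10. Cutting 48 h and 0 h lists to equal length, an alternative chosen after seeing the data, gave 16.2 for H3K14ac. It gave 0.604 for ATF3, a value that the 20 peaks left in that list fix near 0, so that it says nothing of the domains.

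The PHF10 difference between 48 h and 0 h was 2.00 points with touching peaks and 21.0 with joining at 2000 bp. It reversed to -13.2 with −log10 q of at least 5, -43.7 with fold of at least 5 and -44.3 with lists of equal length. The cause was not tested. With −log10 q of at least 5, replicate 1 at 0 h (79.5%) lay above both 48 h libraries (48.9% and 28.7%) and replicate 2 (24.4%) below both. With fold of at least 5, the shares of domains were 2.61% and 0% at 48 h, against 82.1% and 7.82% at 0 h. That fold cut kept 79.3% and 10.3% of the 0 h lists, so the size of this reversal comes from replicate 1. With all peaks, the PHF10 difference ranged from 5.21 to 15.6 when each replicate was left out. With the replicate number as a block it was 10.4 (exact p = 0.5 over sign changes, the smallest 2 pairs allow). The labels do not say that equal numbers mark paired cultures, and over 29490 regions the replicate differences in coverage at the 2 times had a correlation of -0.0852. Read depth is unknown, so that a region without a peak cannot be told apart from one below the detection of a shallow library.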
